A study of Saccharomyces cerevisiae with 95 samples.

Results

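The sites described here are Red1 summits that lie near, but not at, the ends of the longer chromosomes of budding yeast, at 25 to 110 kb from the outermost summit of a chromosome arm. They were picked by position alone, from a list of 2385 Red1 summits on 16 chromosomes. The distance limits were set with earlier results of these data known. Chromosomes I, III and VI, the shortest of the karyotype, were left out, and the first and last listed summit of each of the other 13 chromosomes stood for its ends. This gave 446 summits, 18.7% of the list, in 26 zones of 85 kb (13 left and 13 right). They are called the end-adjacent summits below. The 1547 summits at 110 kb or more from both ends of the same 13 chromosomes form the interior, and the remaining 162 lie in the outermost 25 kb.

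The series maps condensin, the cohesin loader and axis proteins on meiotic chromosomes by ChIP-seq, in which DNA fixed to a protein is recovered with an antibody and sequenced. The cells were wild type yeast of strain SK1, a laboratory strain with rapid and near synchronous meiosis, sampled 3 hours after they entered sporulation medium. The list was made from 4 anti-Red1 libraries, and 4 inputs name it as well, of which 1 is titled as an SMC4-PK9 input without resonication. Of the anti-Red1 libraries, 1 carries the genotype label H6408, the label of the SMC4-PK9 strain, while the other 3 carry H119. PK9 names an epitope tag on Smc4, a condensin subunit. The libraries were combined before summits were called, so each summit has 1 score and no value per culture. No replicate error exists for any score and no test over samples could be made; the spreads given are standard deviations (SD) over the 13 chromosomes or over windows, all read from the same pooled libraries.

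Red1 is a structural protein of the meiotic chromosome axis, the proteinaceous core to which chromatin loops are anchored in prophase of meiosis I. It is brought to many of its sites by cohesin that holds the meiotic kleisin Rec8, it binds the HORMA domain protein Hop1, and together they promote the DNA double-strand breaks made by Spo11. In this yeast the regions near the chromosome ends, on the centromere side of the subtelomeres, are known for keeping Hop1 and break activity late into meiotic prophase. The score of a summit is the peak caller's −log10 of a p-value or q-value; which of them is not stated. It rises with both enrichment and read depth, and it has a meaning only within this list.

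The end-adjacent summits had about the density and the score of the chromosome interiors, and stood above the outermost 25 kb in score. Their scores ran from 20.1 to 2748 with a median of 204, and the middle 50% lay between 73.6 and 708. In the interior the median was 172 with a middle 50% from 58.3 to 666. In the outermost 25 kb it was 116 with a middle 50% from 47.9 to 333. All 2385 summits had a median of 169. The zones covered 20.7% of the summed spans of the 13 chromosomes and held 20.7% of their 2155 summits.

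Strong sites, taken as those with a score of 1000 or more, made up a similar share here and in the interior. They numbered 86 among the end-adjacent summits, which is 19.3% (95% exact binomial interval 15.7 to 23.3%), against 17.7% of all listed summits. The interior value was 17.8% (16.0 to 19.8%), inside the interval of the end-adjacent summits. The outermost 25 kb had 12 such summits, or 7.41% (3.89 to 12.6%). A score of 100 or more was reached by 306 end-adjacent summits, or 68.6% (64.1 to 72.9%), against 62.2% of all listed summits and 61.6% (59.1 to 64.0%) of the interior. Scores under 50 made up 17.3% (13.9 to 21.1%) of the end-adjacent summits, against 20.8% of all listed summits and 21.1% of the interior. These intervals cover counting error only and treat each summit as independent, although many lie close to another. They are not a test of the zones against the interior.

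The list can also be divided at scores of 60.2, 169 and 652 into 4 classes of equal size. The lowest class held 89 end-adjacent summits, the second 111, the third 128 and the highest 118. The weakest class held 20.0% of the end-adjacent and 25.7% of the interior summits, and the third held 28.7% and 24.7%. In the highest class the shares were 26.5% and 25.5%.

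**Figure D1:**
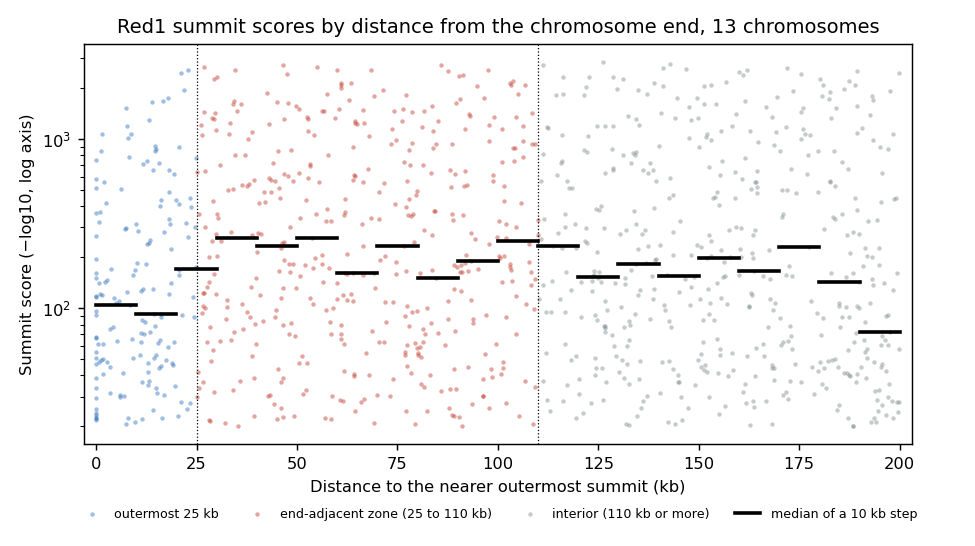
Score of each Red1 summit (−log10 as given by the peak caller, log axis) against its distance in kb from the nearer outermost summit, for the 13 longer chromosomes up to 200 kb. Points are summits, black lines are medians of 10 kb steps and dotted lines mark 25 and 110 kb. The medians of the first 2 steps, 104 and 92.5, lie under those of the 8 steps from 30 to 110 kb, which run from 150 to 262.

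Over all 13 chromosomes together, median scores were lowest next to the end, highest inside the zone and lower again from 110 to 200 kb. Within 10 kb of an outermost summit the median score was 104 (75 summits), and from 10 to 25 kb it was 130 (87 summits). Inside the zone it was 215 from 25 to 50 kb (139 summits), 209 from 50 to 80 kb (155 summits) and 188 from 80 to 110 kb (152 summits). Beyond the zone it was 164 from 110 to 150 kb and 153 from 150 to 200 kb. The share of summits at 1000 or more was 8.05% from 10 to 25 kb and then 18.7%, 20.6% and 18.4% in the 3 parts of the zone. It was 17.6% from 110 to 150 kb. Averaged over chromosomes, the median log10 score was 2.17 ± 0.31 from 10 to 25 kb, 2.35 ± 0.29, 2.42 ± 0.17 and 2.31 ± 0.26 in the 3 parts of the zone, 2.33 ± 0.30 from 110 to 150 kb and 2.13 ± 0.17 from 150 to 200 kb (SD, 13 chromosomes). In steps of 10 kb, the medians between 30 and 110 kb ranged from 150 to 262, and those of the 19 steps from 110 to 300 kb ranged from 72.5 to 508, so the range inside the zone lay within that of the interior.

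Summits on either side of a bound had overlapping scores. At the 25 kb bound, the first member of each of the 26 zones had a median score of 227 (from 21.9 to 2684), and the nearest summit outside had a median of 273 (from 25.5 to 1943). At the 110 kb bound, the last member of each zone had a median of 293 (from 20.6 to 2214) and the nearest interior summit a median of 242 (from 35.2 to 2754).

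**Figure D2:**
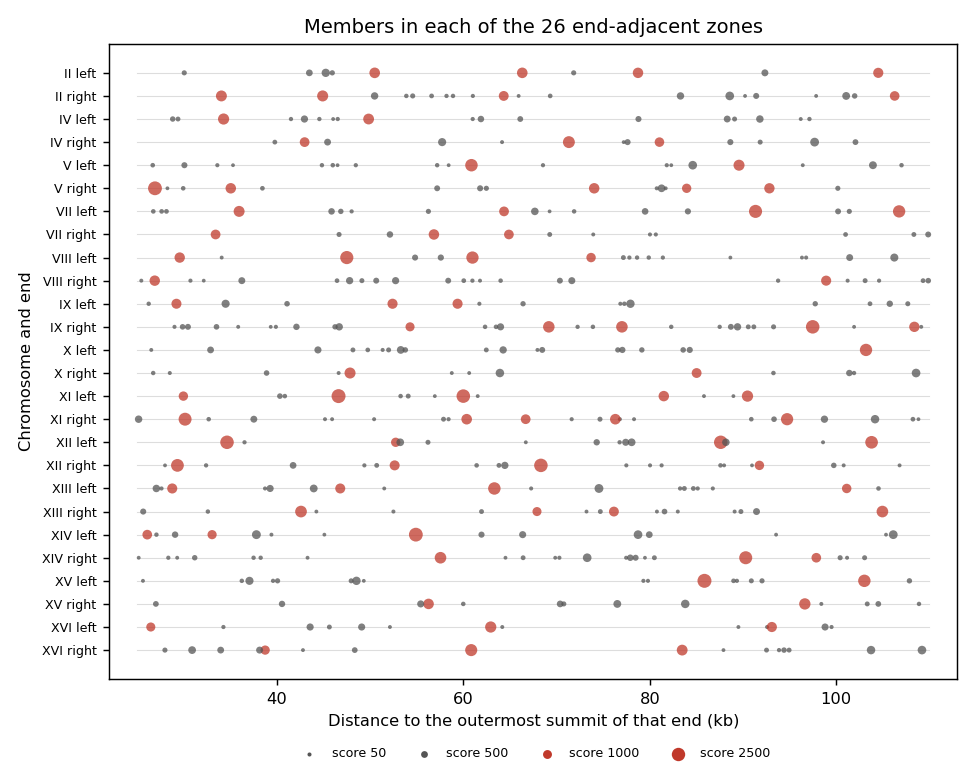
Every end-adjacent summit drawn at its distance in kb from the outermost summit of its end, in 26 rows, 1 for each chromosome end. The area of a point grows with the score, and red marks scores of 1000 or more. Each of the 26 rows holds at least 1 red point and at most 5, and the rows hold 10 to 29 summits.

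Each of the 26 zones held at least 1 summit with a score of 1000 or more, with a median of 3 and at most 5. Cut into windows of the same 85 kb, the interior gave 85 windows, and 5 of these (5.88%) held none. The highest summit of a zone scored between 1349, on the left of chromosome IX, and 2748, on the left of chromosome XV, with a median of 2117. These highest summits were spread over the whole zone, from 26.9 to 103 kb from the outermost summit with a median of 55.9 kb. In 8 of the 26 zones they lay beyond the midpoint at 67.5 kb. On 4 of the 13 chromosomes (V, VIII, XI and XII) the highest summit of the chromosome was an end-adjacent one, and on the other 9 it was in the interior.

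The 10 end-adjacent summits with the highest scores came from 7 chromosomes. The highest, with a score of 2748, was at position 113032 of chromosome XV, 85.9 kb from the first summit of its arm. It was followed by position 48947 of chromosome XI with 2741, at 46.6 kb. Position 542876 of chromosome V had a score of 2684 and lay 26.9 kb from the last summit, close to the 25 kb bound. Position 73382 of chromosome XIV scored 2681, and position 62332 of chromosome XI scored 2571. Both are on left arms, at 54.9 and 60.0 kb, and the sites on chromosome XI are the same zone's highest pair.

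Chromosome XII gave 3 of the 10 and was the only chromosome with an entry at each end. Its sites were position 954869 on the right with a score of 2555, position 52868 on the left with 2554 and position 105835 on the left with 2527. The remaining sites were position 314365 of chromosome IX with 2550 and position 48104 of chromosome VIII with 2414. Within the whole list these sites ranked from 8 to 52. End-adjacent summits were 2 of the 10, 9 of the 50 and 21 of the 100 highest scores in the list, or 20.0%, 18.0% and 21.0%, beside their share of 18.7% of all summits.

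**Figure D3:**
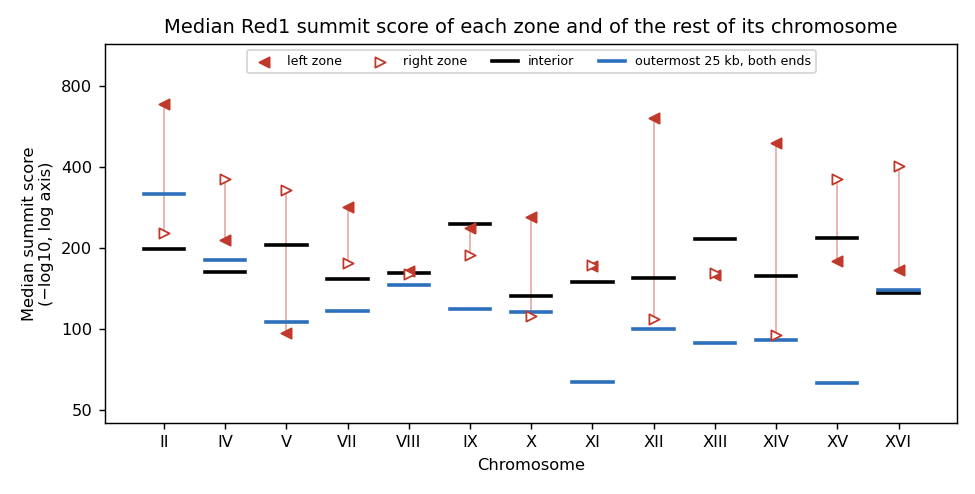
Median Red1 summit score (−log10, log axis) of the left zone (filled triangle), the right zone (open triangle), the interior (black bar) and the outermost 25 kb of both ends (blue bar), for each of the 13 chromosomes. The zones range from 95.5 to 690 and lie on both sides of the interior bar, with 16 of 26 above it.

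Taken by chromosome, the median log10 score of the end-adjacent summits averaged 2.33 ± 0.15 (SD, 13 chromosomes) and that of the interior 2.24 ± 0.09. The mean difference of 0.09 ± 0.18 was smaller than its spread over chromosomes, with the zone higher on 9 of 13. The largest positive differences were on chromosome XVI (median score 304 in the zones and 137 in the interior) and chromosome II (420 and 200), followed by chromosome IV (315 and 164) and chromosome X (254 and 133). The differences went the other way on chromosome V (122 and 205) and chromosome XIII (162 and 217), and by little on chromosomes XV (207 and 219) and IX (235 and 247). The smallest difference was on chromosome VIII, with medians of 165 and 163.

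Single ends varied more than chromosomes. The median score of a zone ran from 95.5 to 690, with a median of 184 over the 26 zones. The highest medians were those of the left ends of chromosome II (690, 10 summits from 204 to 1504), chromosome XII (611, 14 summits from 29.0 to 2554) and chromosome XIV (493, 15 summits from 22.2 to 2681). The highest members of these zones lay at positions 69637, 52868 and 73382. The left zone of chromosome II had the fewest summits of all, and none of them scored under 204.

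The lowest medians were those of the right end of chromosome XIV (95.5, 23 summits from 20.6 to 2363), the left end of chromosome V (97.1, 19 summits from 20.2 to 2156) and the right end of chromosome XII (110, 21 summits from 20.1 to 2555). Their highest members lay at positions 689129, 92129 and 954869. Chromosomes XII and XIV thus had an end among the highest and an end among the lowest. A low median did not mean that strong sites were missing, since these 3 zones held 3, 2 and 4 summits of 1000 or more. The 3 zones with the highest medians held 4, 4 and 3. Zones with more summits tended to have lower medians. Between the number of summits and the median log10 score, Pearson's r was -0.46 and Spearman's rho was -0.42 over the 26 ends.

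The ends of a chromosome often differed from each other. The left and right medians of a chromosome differed by 0.31 on average on the log10 scale, from 0.0016 on chromosome XI to 0.74 on chromosome XII. The left end was higher on 7 of 13, with a mean left minus right difference of 0.09 ± 0.40 (SD, 13 chromosomes). Compared with its own interior, the median was higher at 9 of 13 left ends and at 7 of 13 right ends, 16 of 26 in all. Left zones held 206 summits and right zones 240, with more on the right on 7 of 13 chromosomes.

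**Figure D4:**
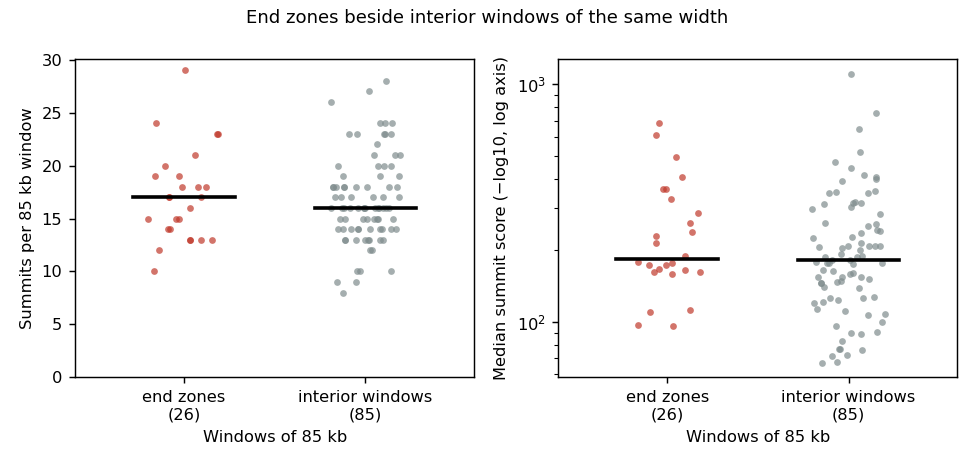
The 26 end zones (red) beside 85 interior windows of the same width (grey), by number of summits in the window (left) and by median summit score (−log10, log axis, right). Points are windows and black bars are medians, which are 17 and 16 summits and scores of 184 and 182; the side-to-side scatter of points has no meaning.

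Windows of equal width give the natural spread of these values along a chromosome. The 26 zones held 17.2 ± 4.33 summits each (SD over zones) and the 85 interior windows 16.7 ± 4.12. The median log10 score was 2.34 ± 0.23 in the zones and 2.27 ± 0.25 in the interior windows. The median over zones of the median score was 184, and that over interior windows was 182. The interior windows reached from 67.1 to 1110, a wider range than that of the zones, and there are more of them. The middle 80% of the interior windows ran from 88.6 to 396. On the log10 scale no zone was below that range, and 3 of the 26 were above it, the left ends of chromosomes II, XII and XIV.

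Summit density was similar in the zones and the interior. The zones carried 20.2 ± 2.68 summits per 100 kb (SD, 13 chromosomes) and the interior 19.9 ± 1.18, a difference of 0.30 ± 2.82 that was positive on 8 of 13 chromosomes. By end, density ran from 11.8 per 100 kb on the left of chromosome II to 34.1 on the right of chromosome IX, where 29 summits lay in 85 kb. The right ends of chromosomes VIII (24 summits), XI (23) and XIV (23) came next. The direction of the mean difference was not stable. It was -0.10 per 100 kb without chromosome IX, -0.22 with the zone taken from 30 to 110 kb and -1.24 at left ends only.

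The density of the zones varied with the length of the chromosome. It was highest on chromosomes IX (25.9 per 100 kb, span 393 kb) and VIII (24.1 per 100 kb, span 517 kb) and lowest on chromosome XVI (17.1 per 100 kb, span 893 kb). Over the 13 chromosomes Pearson's r between span and zone density was -0.66 and Spearman's rho was -0.65. Without chromosomes IV and IX, whose spans are farthest from the median, r was -0.57. For interior density the values were -0.13, -0.10 and 0.11. The points share their libraries, and the difference between the relations was not tested. On chromosomes I, III and VI the same distances from the ends held 28.6, 29.4 and 30.6 summits per 100 kb, with median scores of 337, 169 and 184.

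**Figure D5:**
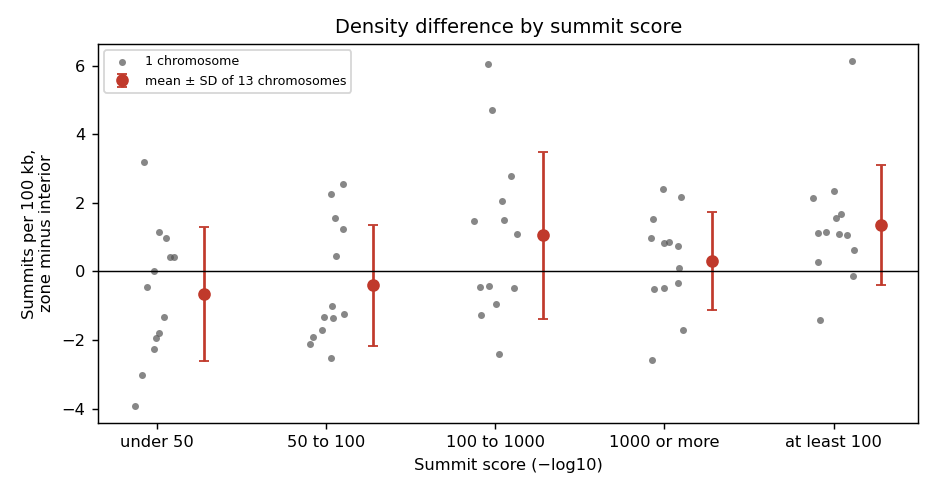
Difference in summit density (summits per 100 kb, zone minus interior) for summits of different score. Grey points are the 13 chromosomes, and red points with bars are their mean ± SD. Points fall on both sides of 0 in every class drawn, with 11 of 13 above it for scores of at least 100 and 8 of 13 for scores of 1000 or more.

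At a minimum score of 100 the mean density was slightly higher in the zones, mainly at right ends. Summits with a score of at least 100 had a density of 13.8 ± 1.97 per 100 kb in the zones and 12.5 ± 1.05 in the interior (SD, 13 chromosomes). The zone was higher on 11 of 13 chromosomes, by 1.35 ± 1.74 on average, and this mean was smaller than its SD. The largest gap was on chromosome IX, with 19.4 in the zones and 13.3 in the interior, and the exceptions were chromosomes V (11.8 and 13.2) and VIII (14.7 and 14.8). Without chromosome IX the mean difference was 0.956. The right ends were higher than the interior on 11 of 13 chromosomes and the left ends on 8 of 13, with mean differences of 2.44 and 0.27.

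In the narrower score classes the chromosomes were more divided. Summits under 50 had 3.48 ± 1.62 per 100 kb in the zones and 4.14 ± 0.90 in the interior, and were rarer in the zones on 7 of 13 chromosomes. Those from 50 to 100 had 2.85 ± 1.31 and 3.25 ± 0.69. Those from 100 to 1000 had 9.95 ± 2.07 and 8.91 ± 1.32, higher in the zones on 7 of 13. Summits of 1000 or more had 3.89 ± 1.11 and 3.59 ± 0.66, higher in the zones on 8 of 13. With a minimum score of 50 the zone was higher on 9 of 13 chromosomes. Of these limits, 100 gave the most chromosomes with the same direction, and it was picked out after the values were seen.

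Spacing was also similar in the zones and the interior, but it did not simply follow the density. At right ends only, the mean density difference was 1.83 per 100 kb. The median distance there was nevertheless longer than in the interior, by 590 ± 1454 bp, on 9 of 13 chromosomes. Neighbouring summits in a zone lay a median of 3390 bp apart (420 distances, middle 50% from 1330 to 6945 bp), and those of the interior 3426 bp (1534 distances, 1320 to 7368 bp). By chromosome the medians averaged 3457 ± 657 bp and 3388 ± 425 bp, a difference of 69.2 ± 780 bp with 7 of 13 chromosomes longer in the zones. Distances under 1 kb made up 19.5% in the zones and 20.0% in the interior. Distances over 15 kb numbered 12 in the zones (2.86%) and 63 in the interior (4.11%). A distance that crosses a bound of the zone is not counted, which removes long distances more often from the narrow zones than from the interior.

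With the weak summits set aside and only scores of 100 or more kept, the distances were shorter in the zones. Their median was 5280 bp over 280 distances, against 6894 bp over 940 in the interior. The zone median was shorter on 12 of 13 chromosomes, with a mean difference (zone minus interior) of -1368 ± 1118 bp. When interior distances were also taken only inside windows of 85 kb, the interior median was 6232 bp, and the zones were shorter on 10 of 13 chromosomes with a mean difference of -888 ± 1138 bp, smaller than its SD.

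The longest stretch without a listed summit in any zone was 30.0 kb on the left of chromosome XV, between positions 76484 and 106481, bounded by scores of 22.9 and 62.2. The caller's peak numbers skip 2 between these summits, so 2 numbered peaks there had no summit in the list. On chromosome XVI the left zone had a stretch of 25.3 kb between positions 91221 and 116554, bounded by weak summits of 40.0 and 33.3. The right zone of chromosome XVI had 22.6 kb between positions 836446 and 859078, and that stretch was bounded by strong sites of 1568 and 2004. No number was skipped in either.

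Strong sites lay at similar distances from each other in both regions. Successive summits of 1000 or more within a zone lay a median of 18.1 kb apart (60 distances, middle 50% from 12.0 to 27.3 kb), and the closest were 6.33 kb apart. In the interior the median was 18.3 kb (263 distances, middle 50% from 11.7 to 32.6 kb), and 17 of the 263 (6.46%) were shorter than the shortest in a zone. A zone cannot hold a distance over its width of 85 kb. Interior distances under that width had a median of 18.1 kb (254 distances, middle 50% from 11.6 to 29.8 kb). Runs of summits under 1 kb apart took up 152 of the 446 end-adjacent summits (34.1%) and 36.3% of the interior ones. The longest run in a zone had 4 summits, between positions 88685 and 90572 on the left of chromosome XIII, with scores from 71.6 to 168.

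Isolated summits had higher scores than crowded ones, in the zones and in the interior. With the nearest summit no more than 740 bp away, the median score was 163 in the zones (111 summits) and 104 in the interior (399). From there to 1545 bp it was 131 and 125, and up to 3470 bp it was 224 and 210. Beyond 3470 bp it was 548 (116 summits) and 520 (383). The share at 1000 or more was 4.50% in the most crowded class of the zones and 36.2% in the most isolated. The interior shares of the same classes were 7.02% and 32.6%. In the most crowded class the zone median was higher on 10 of 13 chromosomes, with a mean difference of 0.15 ± 0.34 on the log10 scale and 4 to 15 zone summits per chromosome. In the most isolated class it was higher on 5 of 13, with a mean difference of -0.08 ± 0.33.

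The outermost 25 kb had lower scores than the end-adjacent summits. The median log10 score of the zones was higher than that of the outermost 25 kb on 13 of 13 chromosomes, by 0.27 ± 0.13 (SD, 13 chromosomes; 2.33 ± 0.15 against 2.06 ± 0.19). The differences ran from 0.06 to 0.51. The interior exceeded the outermost 25 kb on 10 of 13 chromosomes, by 0.18 ± 0.21. At single ends the outermost median was lower than the zone median at 22 of 26. Summit density was lower in the zones, 20.2 ± 2.68 per 100 kb against 24.9 ± 5.51, on 11 of 13 chromosomes. The outermost summits themselves, which define the ends, are counted in the latter. Every outermost window thus starts on a summit by definition, which raises its density. From 10 to 25 kb, where none of these summits lie, the density over all 13 chromosomes together was 22.3 per 100 kb. It was 28.8 within 10 kb, and 21.4, 19.9 and 19.5 in the 3 parts of the zone. No density of the whole 25 kb without these summits was computed, so the difference is not read as fewer sites in the zones. How reads that map to several places, as in repeated subtelomeric sequence, were treated is not given in the sources used here.

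The caller's peak numbers show how many peaks near each zone did not reach the list. Between the first and the last member of the 26 zones the caller had given 519 numbers, of which 446 (85.9%) had a listed summit. The shares were 86.3% in the interior and 84.8% in the outermost 25 kb. Every zone had at least 1 unlisted number and at most 7.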

How the data were processed

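The data analysed are 1 deposited list of Red1 ChIP-seq summits with the authors' −log10 score (of a p-value or q-value, which is not stated). Per the submitters' processing notes, Bowtie and MACS2 2.1.1 were used, and per the labels the replicates were combined into the list. Per the peak names in the deposited list and the list's name, positions are in an SK1 assembly (tag SK1Yue) and scores over 20 were kept. Read depth is unknown. Annotation of that assembly was not used here, so no gene is named and no sequence is shown.

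Ends were the outermost summits; the zone was 25 to 110 kb from the nearer end. Medians, densities and spacings were computed per chromosome in Python 3.11.15 (numpy 2.4.6, pandas 2.3.3, scipy 1.17.1) and checked on simulated data. No test over samples was possible in a single pooled list. The members, lists and limits were chosen with earlier results of these data known. Named sites are the 10 highest members, the 3 longest distances, and the 3 highest and lowest zones by median score. The class limit of 100 and the longest run of close summits were singled out after their values were seen.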

Additional observations from a re-analysis of the deposited data

How the results depend on the processing

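No analysis paired by library was possible because the libraries were pooled before summits were called. Leaving out a replicate was impossible for the same reason. Zone and interior were paired only by chromosome. Over 27 alternative settings, 156 of 159 values moved by less than the SD over chromosomes or, for counts of ends, by less than 1.5 times. For every difference this SD was larger than the main value, so the limit is wide and the tally says little about stability. A density difference of -1.24 in place of 0.30 counts as within it. The first exception was the spacing difference with scores of at least 100 (-1368 bp, among fewer summits). The others were the counts of ends above their interior at left ends only (9) and right ends only (7). Each is out of 13 ends in place of 26, so the count was bound to fall. In 14 alternatives a difference changed sign. The score difference ranged from -0.0078 with scores of at least 100 to 0.18 at 50 to 80 kb, and with each chromosome left out it lay between 0.06 and 0.11. The density difference ranged from -1.24 (left ends only) to 1.83 (right ends only). The first listed summit lay 0.618 to 32.7 kb from base 1, so true distances differ between ends. Measured from base 1 at left ends, the score difference was 0.06. The settings from base 1, in parts of the zone, in score classes bounded on both sides and with spacing inside windows of 85 kb were chosen after the data were seen; the score minimums of 50 and 100 were planned. The unknown depth limits every score.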
